A study of Mus musculus with 6 samples.

Results

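Tendon and the connective tissue within muscle were followed through 10 genes: Scx, Mkx, Tnmd, Tnc, Six2, Osr1, Osr2, Tcf4, Tcf7l2 and Thbs4. They were taken by name, as every array probe that the platform annotation assigns to one of these symbols, which gave 17 probes of the 25697 on the array and 10 of the 16593 named genes. RNA came from the hindlimb buds of mouse embryos of the SV129 strain at E12.5, bred from Pitx1+/- parents. The control group was PITX1+/+ (wild type, 3 samples) and the mutant group was PITX1-/- (called knockout here, 3 samples), with no agent named for either, and the labels state neither the deleted part of Pitx1 nor how many embryos went into a sample. Pitx1 is a homeodomain transcription factor of the hindlimb, and the comparison asks which transcripts differ when it is lost from the whole animal.

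In the limb, tendon progenitors and muscle connective tissue fibroblasts arise from lateral plate mesoderm, while muscle precursors migrate in from the somites. Scleraxis, encoded by Scx, is a basic helix-loop-helix factor that marks tendon progenitors from early on. Mohawk, the homeodomain factor encoded by Mkx, acts later in tendon to raise matrix genes, and tenomodulin (Tnmd) is a membrane protein of maturing tendon cells. Tenascin C (Tnc) and thrombospondin 4 (Thbs4) are secreted matrix glycoproteins of tendon and of the muscle-tendon junction. Osr1 and Osr2 encode zinc finger factors of connective tissue, and Six2 encodes a homeodomain factor of limb mesenchyme and connective tissue.

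The names Tcf4 and Tcf7l2 need care. The HMG-box factor that marks fibroblasts of muscle connective tissue has long been called TCF4 as a protein, but its gene is Tcf7l2, and the RefSeq gene table lists Tcf4 among the synonyms of Tcf7l2. The gene whose symbol is Tcf4 encodes another protein, the basic helix-loop-helix E protein E2-2, which is expressed in many tissues. Both genes were measured, each by its own probes, and only the Tcf7l2 probes bear on the connective tissue marker.

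Tnc was the member with a called change, so the window around its annotated start is shown. Beside it is the only window with a match to the Pitx site among the 7 member windows read. That window is at 1 of the 2 annotated starts of Tcf7l2. A RefSeq promoter window, of 250 bases before to 50 bases after a start, was read for 5 of the 10 members in assembly GRCm38.p6 (Tnc, Thbs4, Six2, Tcf7l2 and Tnmd). No window was read for Mkx, Scx, Osr1, Osr2 or Tcf4, so matches there are not known. Capitals mark matches on either strand to the bicoid-type core bound by Pitx proteins (TAATCC) or to the E-box bound by basic helix-loop-helix proteins such as scleraxis (CANNTG). The windows are Tnc at chr4:64046966-64047265 on the minus strand and the downstream start of Tcf7l2 at chr19:55895071-55895370 on the plus strand.
Tnc: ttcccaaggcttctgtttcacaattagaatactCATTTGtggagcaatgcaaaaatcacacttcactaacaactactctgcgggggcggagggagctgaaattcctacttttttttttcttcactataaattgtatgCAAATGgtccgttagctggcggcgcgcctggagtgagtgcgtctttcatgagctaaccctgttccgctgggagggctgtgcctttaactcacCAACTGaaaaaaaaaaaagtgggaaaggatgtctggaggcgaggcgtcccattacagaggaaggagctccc
Tcf7l2: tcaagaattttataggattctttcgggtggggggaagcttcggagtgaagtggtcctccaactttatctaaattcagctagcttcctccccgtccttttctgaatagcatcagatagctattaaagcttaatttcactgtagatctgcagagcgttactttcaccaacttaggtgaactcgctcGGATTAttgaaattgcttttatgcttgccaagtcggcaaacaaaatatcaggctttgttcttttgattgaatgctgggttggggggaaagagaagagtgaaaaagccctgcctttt
The Tnc window holds 3 E-box matches and no TAATCC. The window of a further annotated Tnc start, 79 bases downstream, holds no TAATCC either. This Tcf7l2 window holds TAATCC on the opposite strand, read as GGATTA above, which begins 66 bases before the start. The window of the other, upstream Tcf7l2 start holds no TAATCC. Of all 32851 windows in the table, 7.06% hold TAATCC and 72.3% hold CANNTG, so an E-box match is common. A match describes letters only and shows no binding.

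The intensities are linear, in arbitrary units, already background-subtracted, and can lie below 0. Background was judged from the values below 0, which gave a threshold of 14.3 units, and a probe was tested where 3 or more of the 6 arrays exceeded it. Of the 17 member probes, 9 were tested, representing 8 of the 10 genes. Fold changes are knockout minus wild type on a log2 scale, after a background model (normexp) with an offset of 50 units. Together the model and the offset raised the intensities of the tested member probes by 72.3 to 72.5 units, which understates the change of dim probes. Tests are limma's, two-sided, with Benjamini-Hochberg adjustment over all 13720 probes tested, and the number of arrays limits every value. Among markers of the labelled hindlimb, Tbx4, Hoxc10 and Pitx1 were above background on all 6 arrays, Hoxc11 lay near the threshold, and both probes of the forelimb gene Tbx5 were below it on all 6. Pitx1 itself had a mean of 139.6 ± 14.7 units over the wild-type arrays and 76.5 ± 1.6 over the knockout arrays (SD, n = 3 each). On the first principal component (44.2% of the variance) knockout replicate 3 lay at 22.3, far from the others at -8.87 to 1.39, so the folds of Tnc, Mkx, Scx and Tcf7l2 are also given without it.

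Of the 9 member probes tested, 1 was called lower in knockout, 0 were called higher and 8 were not called, at an adjusted p under 0.05. Over all probes tested, 0.153% were called lower, 0.0656% higher and 0.219% in either direction. An unadjusted p under 0.05 was reached by 3 of the 9 (8.05% of all probes), and in the same 3 all knockout arrays lay below all wild-type arrays (13.2% of all probes did not overlap in either direction, 6.58% with knockout lower). These were the 2 brightest Tnc probes and the Mkx probe, so they represent 2 genes. The median log2 fold change of the 8 genes, each by its brightest probe, was -0.04, against 0.00 over the 9539 genes tested.

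**Figure D1:**
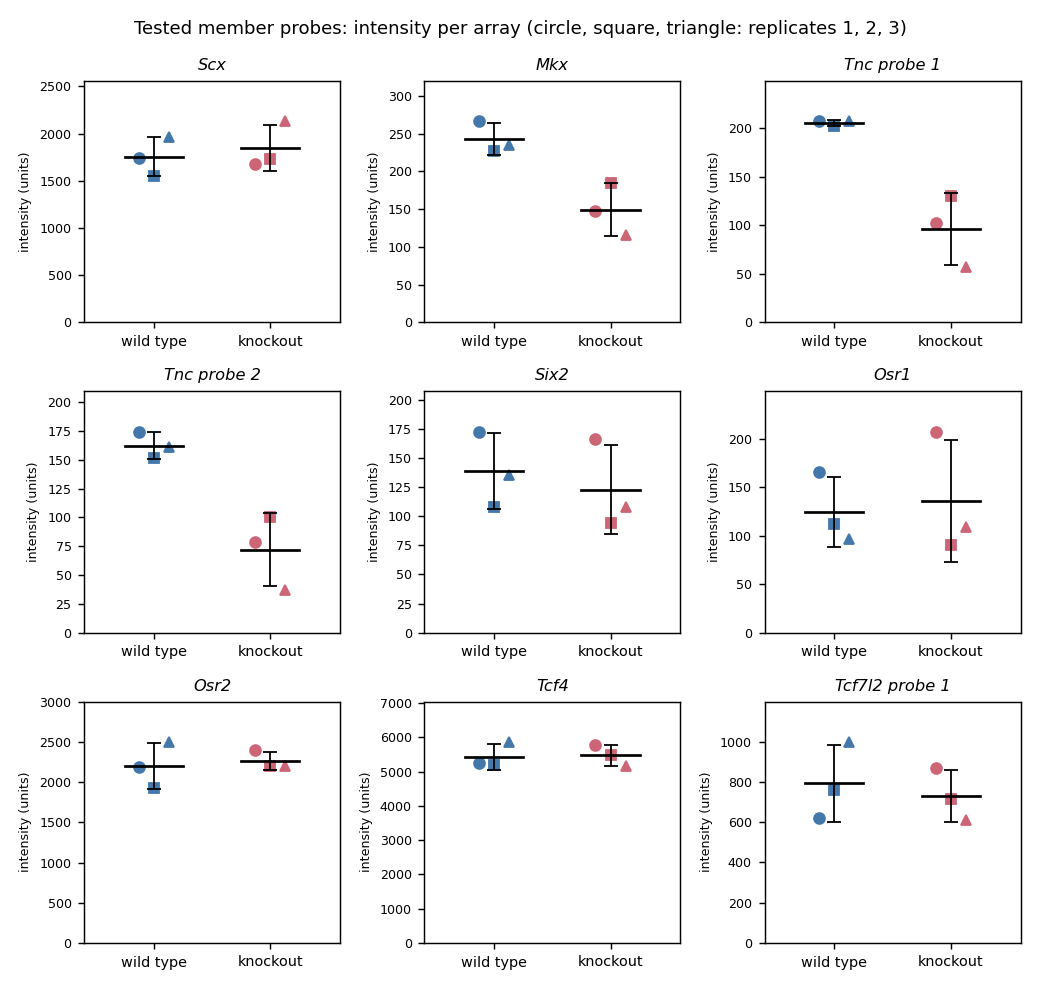
Intensity in units of the 9 tested member probes, in the 3 wild-type and 3 knockout arrays. Points are arrays (circle, square and triangle for replicates 1, 2 and 3), horizontal bars are means and error bars are SDs. Each y axis starts at 0 and has its own scale. Knockout lies wholly below wild type for Tnc probes 1 and 2 and for Mkx, and the genotypes overlap for Scx, Six2, Osr1, Osr2, Tcf4 and Tcf7l2.

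Tenascin C is a large matrix glycoprotein laid down where tendon, perichondrium and muscle meet. Its brightest probe, called probe 1 here, read 207.3, 202.4 and 207.2 units in wild-type replicates 1, 2 and 3 and 102.6, 130.1 and 56.9 units in knockout replicates 1, 2 and 3. The wild-type arrays lay within a few units of each other, and the knockout arrays were spread widely below them. The knockout mean was 0.47 times the wild-type mean. On this log2 scale Tnc probe 1 fell by 0.74 ± 0.13 (SE, n = 3 each; limma adjusted p = 0.038, 95% interval -1.03 to -0.46). The log2 ratio of the mean deposited intensities was -1.09. The log2 values of probe 1 had an SD of 0.33 in knockout and 0.014 in wild type, a ratio of 22.9, while limma assumes the same spread in both groups.

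The next Tnc probe gave a similar fold, but its wild-type arrays lay further apart. Relative to the wild-type mean, their log2 values were 0.07, -0.07 and -0.01 in replicates 1 to 3, against 0.01, -0.02 and 0.01 for probe 1. The knockout arrays were spread much as for probe 1 (-0.63, -0.44 and -1.09 for probe 2). The ratio of spreads given for probe 1 thus does not carry over to probe 2. Tnc probe 2 read 174.7, 151.4 and 160.8 units in wild-type replicates 1 to 3 and 78.9, 99.97 and 37.3 in knockout replicates 1 to 3. Its log2 fold change was -0.72 ± 0.14 (SE), which missed the threshold (limma adjusted p = 0.052). In both probes knockout replicate 2 was the highest knockout array and replicate 3 the lowest. Probes 1 and 2 measure the same transcript and are not independent support for each other.

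The Tnc call depended on the arrays used. It was lost without wild-type replicate 1, 2 or 3 (limma adjusted p of 0.23, 0.17 and 0.18), with log2 fold changes of -0.74, -0.75 and -0.74. Those fits called only 3, 4 and 0 probes over the whole array, against 30 in the main fit, so the loss was not particular to Tnc. Without knockout replicate 1, 2 or 3 the Tnc call held, at log2 fold changes of -0.78, -0.89 and -0.56 (adjusted p = 0.039, 0.022 and 0.033). Over the whole array these fits called 91, 48 and 32 probes. Without knockout replicate 3, Tnc probe 2 also passed, at -0.54 (adjusted p = 0.046). The Tnc call was lost with an offset of 16 units (log2 fold change -0.89, adjusted p = 0.10) and with no background step (-1.17, adjusted p = 0.43), although both gave larger folds. Over the whole array the fit with an offset of 16 units called 8 probes and the fit with no background step 0. The Tnc call was also lost when probes had to be above background on all 6 arrays (adjusted p = 0.054), where 21 probes in all were called. The call held with quantile normalization (limma adjusted p = 0.038), no filter on dim probes (0.028) and an intensity trend (0.026). With the replicate number as a block it held at 0.0068, and with array weights at 0.0065.

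**Figure D2:**
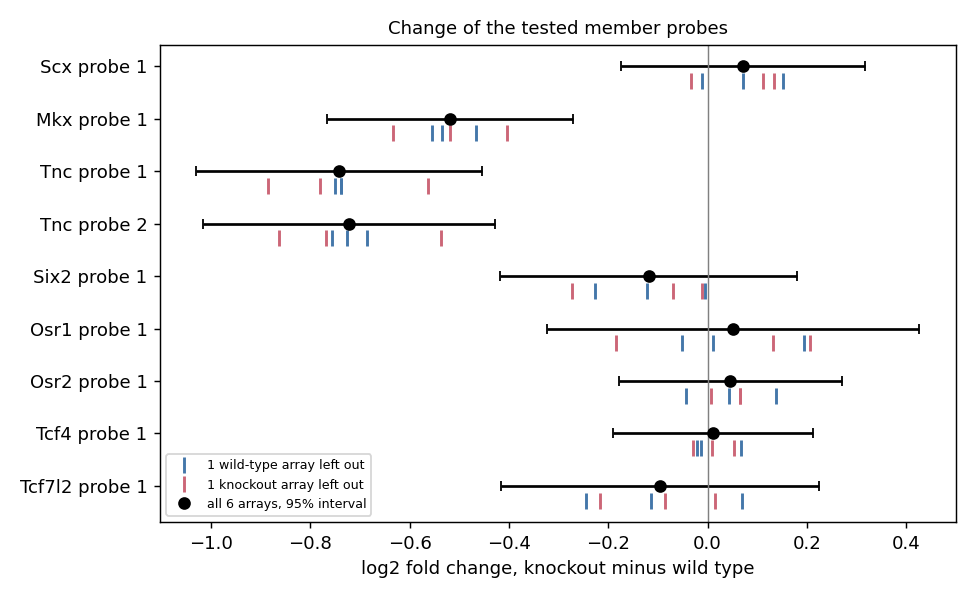
Log2 fold change (knockout minus wild type, after normexp with an offset of 50 units) of the 9 tested member probes. Black points with bars are the fit to all 6 arrays with its 95% interval, and coloured ticks below each are the fits with 1 wild-type or 1 knockout array left out. The intervals of Tnc probes 1 and 2 and of Mkx lie below 0, unadjusted for the number of probes, and the other 6 intervals cover 0.

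Mohawk belongs to the TALE homeodomain family and is required in mice for tendons of normal mass. The Mkx probe read 266.5, 226.9 and 235.5 units in wild-type replicates 1 to 3 and 147.3, 185.3 and 115.1 in knockout replicates 1 to 3. All knockout arrays lay below all wild-type arrays, and knockout replicate 2 was again the highest and replicate 3 the lowest of their group. The knockout mean was 0.61 times the wild-type mean, with a log2 fold change of -0.52 ± 0.11 (SE, n = 3 each) and a 95% interval of -0.77 to -0.27. Adjusted over the 13720 probes, Mkx missed the threshold (limma adjusted p = 0.12). It passed without knockout replicate 2, at -0.63 (adjusted p = 0.037), and not without knockout replicate 3, at -0.40 (adjusted p = 0.29).

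Scleraxis, the early tendon marker, was measured well above background. The Scx probe read 1746, 1548 and 1962 units in wild-type replicates 1 to 3 and 1675, 1732 and 2130 in knockout replicates 1 to 3. The genotypes overlapped, and the highest value of all belonged to knockout replicate 3, the array with the lowest Tnc and Mkx. For Scx the log2 difference was 0.07 ± 0.11 (SE, limma adjusted p = 0.89), with a 95% interval of -0.17 to 0.32, and it was -0.03 without knockout replicate 3 and -0.01 without wild-type replicate 2. The interval leaves room for a moderate change in either direction.

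The changes of Tnc and Mkx were set against that of Scx array by array. The difference between the log2 changes was -0.81 for Tnc minus Scx and -0.59 for Mkx minus Scx, and for both pairs all 3 knockout arrays lay below all 3 wild-type arrays. An exact two-sided permutation test over the 6 arrays gave p = 0.1 for each, adjusted to 0.1 over the 2 pairs, which is the smallest p that 3 against 3 arrays allow. These pairs were chosen after their values were seen, so the permutation p-values carry no weight as support and the differences are a description.

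The factors of muscle connective tissue gave no call, and the genotypes overlapped for each. Tcf7l2 probe 1 read 620.9, 757.1 and 998.7 units in wild-type replicates 1 to 3 and 868.7, 712.5 and 610.0 in knockout replicates 1 to 3. Wild type alone spanned nearly the whole range of the knockout arrays. The log2 fold change of Tcf7l2 was -0.10 ± 0.15 (SE, adjusted p = 0.89), with a 95% interval of -0.42 to 0.22, and it turned to 0.01 without knockout replicate 3 and to 0.07 without wild-type replicate 3.

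Osr1 marks progenitors of muscle connective tissue in the mouse limb. The Osr1 probe read 165.5, 111.8 and 96.7 units in wild-type replicates 1 to 3 and 207.3, 90.4 and 108.4 in knockout replicates 1 to 3. Replicate 1 was the highest array in each genotype, while the labels give the replicate numbers no meaning across genotypes. The log2 fold change of Osr1 was 0.05 ± 0.17 (SE, adjusted p = 0.95), the widest interval among the members tested (-0.32 to 0.43). It turned to -0.18 without knockout replicate 1 and to -0.05 without wild-type replicate 3. Its paralog Osr2 read 2184, 1931 and 2504 units in wild-type replicates 1 to 3 and 2397, 2204 and 2206 in knockout replicates 1 to 3. Osr2 gave a log2 fold change of 0.05 ± 0.10 (adjusted p = 0.92, 95% interval -0.18 to 0.27), and -0.04 without wild-type replicate 2.

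Six2 read 172.8, 107.7 and 135.8 units in wild-type replicates 1 to 3 and 166.5, 94.1 and 108.2 in knockout replicates 1 to 3. As for Osr1, replicate 1 was the highest array in each genotype. The log2 fold change of Six2 was -0.12 ± 0.14 (SE, adjusted p = 0.85, 95% interval -0.42 to 0.18). Tcf4, which encodes the E protein E2-2, read 5249, 5189 and 5871 units in wild-type replicates 1 to 3 and 5785, 5480 and 5159 in knockout replicates 1 to 3. It had the narrowest interval of the members tested, -0.19 to 0.21, around an estimate of 0.01 ± 0.09 (SE, limma adjusted p = 0.98) on the log2 scale. Its sign turned without wild-type replicate 1 or 2 or knockout replicate 1 (-0.01, -0.02 and -0.03).

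The mature tendon products were not detectable at this signal. The Tnmd probe lay between 6.5 and 12.7 units over the 6 arrays, below the threshold of 14.3 on each, with a mean of 9.26 ± 3.16 over wild-type arrays and 9.28 ± 2.46 over knockout arrays (SD, n = 3 per genotype). The Thbs4 probe lay between -9.02 and 3.87 units, also below it on each. Neither gene has a further probe, so no fold change is given for them.

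Of the 6 Tnc probes, 4 were likewise not tested. Tnc probe 3 exceeded the threshold on 1 array, wild-type replicate 3 at 17.8 units, and probes 4, 5 and 6 on none. Of the 3 Tcf7l2 probes, probes 2 and 3 lay below background on all 6 arrays. The platform annotation gives all 6 Tnc probes the same RefSeq transcript and likewise the 3 Tcf7l2 probes, and probe sequences were not used here, so which part of a transcript each probe reads is not known. The Tnc result thus rests on 2 of 6 probes, and the Tcf7l2 result on 1 of 3.

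**Figure D3:**
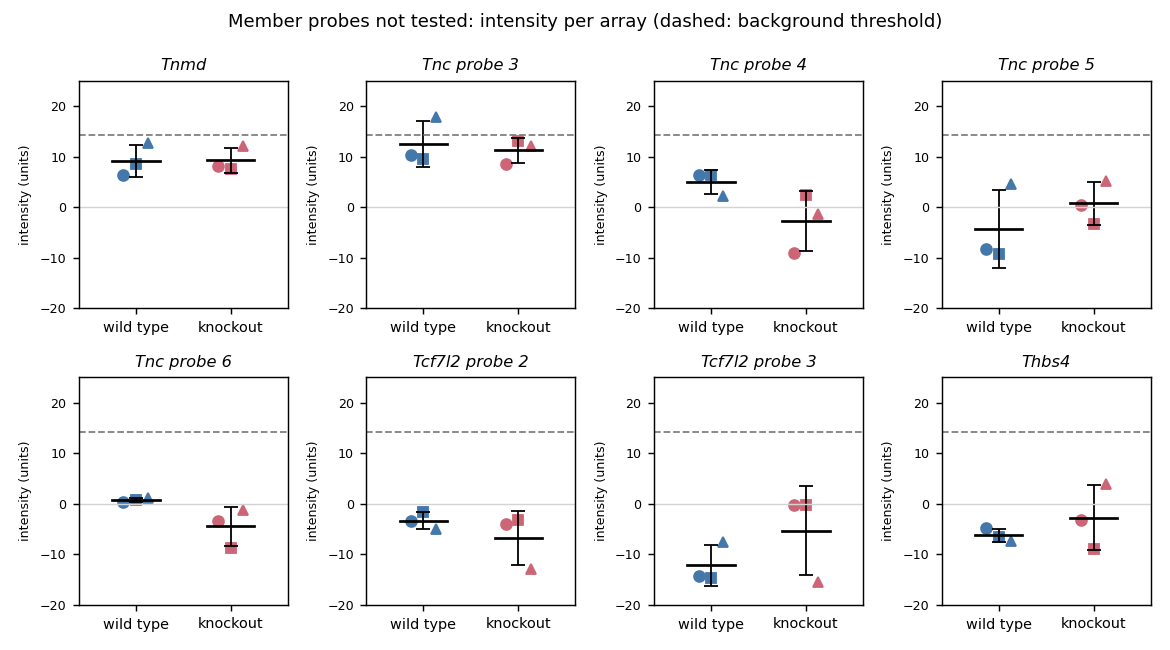
Intensity in units of the 8 member probes that were not tested, in the 3 wild-type and 3 knockout arrays. Symbols are as in the plot of the tested probes, and the dashed line is the background threshold of 14.3 units. Values run from -15.4 to 17.8, with 1 point above the line, in Tnc probe 3.

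The samples were whole limb buds, in which fewer cells of a type and less RNA per cell cannot be told apart. Most muscle markers were lower in knockout, as Tnc and Mkx were. Of the 10 muscle markers listed, 9 were tested, 4 were called lower (0.220% of all genes were) and 0 higher, and 8 had no overlap between genotypes (13.8% of all genes in either direction). The tested marker that overlapped was Myod1, which read 41.8, 39.8 and 46.4 units in wild-type replicates 1 to 3. In knockout replicates 1 to 3 it read 63.8, 39.6 and 10.8 (log2 fold change -0.09, limma adjusted p = 0.89). Myf5 was below background on all arrays. The summed intensity of the 9 ran from 12127 to 15494 units in wild type and was 6824, 5128 and 1688 in knockout replicates 1, 2 and 3. Set against the wild-type mean, the average log2 level of the muscle markers was -0.71, -1.03 and -2.04 in knockout replicates 1, 2 and 3, and that of Tnc probe 1 was -0.67, -0.46 and -1.10. Mkx stood at -0.52, -0.29 and -0.75. Replicate 3 was lowest in each of these, but replicate 1 was highest for muscle and replicate 2 for Tnc and Mkx.

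Cartilage markers (6 of 7 tested, 0 called) summed to between 2831 and 4297 units in wild type and between 1820 and 3357 in knockout, so the genotypes overlapped in this sum. Log2 fold changes were below 0 in 5 of the 6 (median -0.33), 2 were lower at an unadjusted p under 0.05 (Col9a2 and Matn1) and 1 did not overlap between genotypes (Matn1, log2 fold change -0.46, limma adjusted p = 0.22). The average log2 level of the cartilage markers was -0.12, -0.17 and -0.53 in knockout replicates 1, 2 and 3, and -0.14 to 0.22 in the wild-type arrays. The 5 erythroid markers tested, of 6 listed, summed to between 62340 and 75010 units in wild type and between 83450 and 94270 in knockout. By limma 0 were called, and all 5 were higher at an unadjusted p under 0.05 (3.66% of all genes were). In all 5 the knockout arrays lay above all wild-type arrays (13.8% of all genes did not overlap in either direction). Endothelial, macrophage and surface ectoderm markers (5, 3 and 5 genes tested) gave 0 calls by limma, with 0, 1 and 0 at an unadjusted p under 0.05. All 3 macrophage log2 fold changes were below 0. The macrophage average was -0.11, -0.18 and -0.32 in knockout replicates 1, 2 and 3 and -0.05 to 0.10 in wild type. For endothelium it was 0.01, 0.04 and -0.16 (wild type -0.05 to 0.06), and for surface ectoderm -0.07, -0.17 and 0.05 (wild type -0.41 to 0.21). Knockout replicate 3 was also the lowest array for macrophages, endothelium and cartilage, and not for surface ectoderm. The Schwann cell and neural crest list had 0 tested genes. The part of any of these cell types in the Tnc and Mkx values was not tested.

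**Figure D4:**
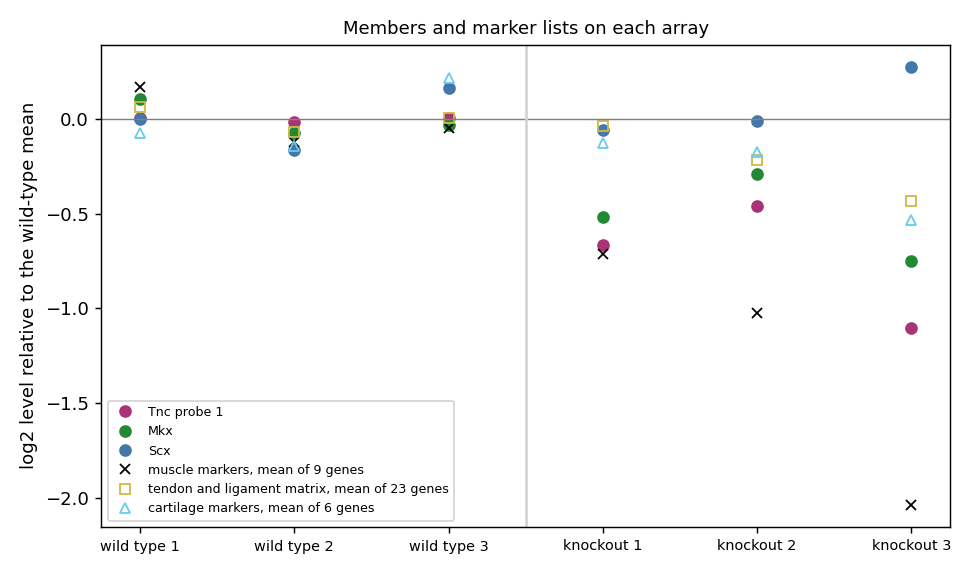
Log2 level relative to the wild-type mean (y axis) on each of the 6 arrays (x axis), for Tnc probe 1, Mkx and Scx and for the mean over the tested genes of 3 lists. Knockout replicate 3 is the lowest array for Tnc (-1.10), Mkx (-0.75) and muscle (-2.04) and the highest for Scx (0.28).

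Other genes of the same tissues were grouped by role in 6 lists of 99 genes, of which 78 were tested. By limma 0 were called in either direction (0.220% of all genes were called lower and 0.0524% higher), while 13 were lower and 5 higher at an unadjusted p under 0.05 (4.85% and 3.66% of all genes). A log2 fold change below 0 was seen in 50 of the 78, against 50.2% of all genes.

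Matrix genes of tendon and ligament had the lowest median of the 6 lists. The cartilage and muscle marker lists had lower medians, -0.33 and -1.53. Of 23 tested, 0 were called, 6 were lower and 0 higher at an unadjusted p under 0.05, 19 had a log2 fold change below 0 and the median was -0.18. Dcn, which encodes the collagen-binding proteoglycan decorin, read 1181, 1024 and 841.7 units in wild-type replicates 1 to 3 and 611.9, 684.2 and 382.5 in knockout replicates 1 to 3. The genotypes did not overlap for Dcn, with the knockout arrays in the same order as for Tnc, and its log2 fold change was -0.80 ± 0.16 (SE, limma adjusted p = 0.076). Col5a1, a chain of the collagen that sets fibril width, averaged 1809 ± 238 and 1175 ± 406 units in the respective genotypes, wild type first (SD, n = 3 each; log2 fold change -0.63, adjusted p = 0.26). Fbln1, which encodes fibulin 1, averaged 4299 ± 302 and 3372 ± 340 units (-0.35, adjusted p = 0.32). Taken as a mean over the 23 genes, the log2 level stood at -0.04, -0.22 and -0.43 in knockout replicates 1, 2 and 3 when set against the wild-type mean. The 3 wild-type arrays ran from -0.07 to 0.06. Without knockout replicate 1 Col5a1 passed (-0.88, adjusted p = 0.0094), and without knockout replicate 2 Dcn passed (-0.95, adjusted p = 0.045). Without knockout replicate 3, or any 1 wild-type array, 0 of the 23 were called by limma. The count at an unadjusted p under 0.05 was then 4 without knockout replicate 3 and 4 to 7 without a wild-type array.

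Of 18 tested genes among the signals that induce tendon, 0 were called and the median was -0.04, with 3 lower at an unadjusted p under 0.05. Tgfbr2, the TGF-beta type II receptor that mouse tendons need to form, had mean intensities of 1055 ± 79 units in wild-type arrays and 772 ± 228 units in knockout arrays (SD, n = 3 per genotype), and a log2 fold change of -0.45 (limma adjusted p = 0.43). It passed without knockout replicate 1, at -0.64 (adjusted p = 0.048). Without any other single array 0 of the 18 were called by limma, and without knockout replicate 3 the count at an unadjusted p under 0.05 was 0. Nog, an antagonist of BMPs, gave -0.41 (adjusted p = 0.43), and Gdf5, a growth factor of the joint interzone, gave -0.38 (adjusted p = 0.51).

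Among 16 tested genes of muscle connective tissue and limb mesenchyme, 0 were called, 3 were lower and 2 higher at an unadjusted p under 0.05. The smallest p belonged to Tbx4, a T-box factor of the hindlimb that patterns its muscle and tendon in mice, with mean intensities of 354.4 ± 48.8 units in wild-type arrays and 226.7 ± 18.9 units in knockout arrays (SD, n = 3 per genotype), a log2 fold change of -0.51 (limma adjusted p = 0.076). Meox2, a homeodomain factor of limb muscle precursors, read 628.1, 540.1 and 502.9 units in wild-type replicates 1 to 3 and 734.5, 833.0 and 751.7 in knockout replicates 1 to 3. All its knockout arrays lay above all wild-type arrays, and its log2 fold change was 0.43 ± 0.10 (SE, adjusted p = 0.14). Nt5e, which encodes the mesenchymal surface enzyme CD73, averaged 93.0 ± 31.0 and 45.8 ± 5.0 units (-0.47, adjusted p = 0.22).

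Known partners of Six2 and its relatives gave 0 calls among 7 tested genes, with 1 lower at an unadjusted p under 0.05. This was Eya2, a coactivator of that family, at 61.9 ± 1.9 units in wild-type arrays and 42.7 ± 9.0 units in knockout arrays (SD, n = 3 per genotype), with a log2 fold change of -0.22 (limma adjusted p = 0.57). Eya4 gave -0.22 and Eya3 0.17 (adjusted p = 0.62 and 0.67). Relatives of Tcf7l2 and targets of Wnt signalling gave 0 calls among 7 and 0 at an unadjusted p under 0.05. The smallest p there belonged to Lgr5 (-0.14), Sp5 (0.11) and Lef1 (0.15), with limma adjusted p of 0.74, 0.76 and 0.77.

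The list of E proteins, their Id antagonists and related factors had the highest median of the 6 lists, 0.27 over 7 tested genes. The erythroid marker list had a higher one, 0.46. Of the 7, 0 were called and 3 were higher at an unadjusted p under 0.05. The 3 were not E proteins. Tcf15, a basic helix-loop-helix factor of paraxial mesoderm also called paraxis, had mean intensities of 113.1 ± 29.9 units in wild-type arrays and 162.9 ± 12.8 units in knockout arrays (SD, n = 3 per genotype), and a log2 fold change of 0.35 (limma adjusted p = 0.39). Id2 and Id1, which bind E proteins and keep them off DNA, both gave 0.31 (adjusted p = 0.42 and 0.56), and the genotypes overlapped for Id1.

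**Figure D5:**
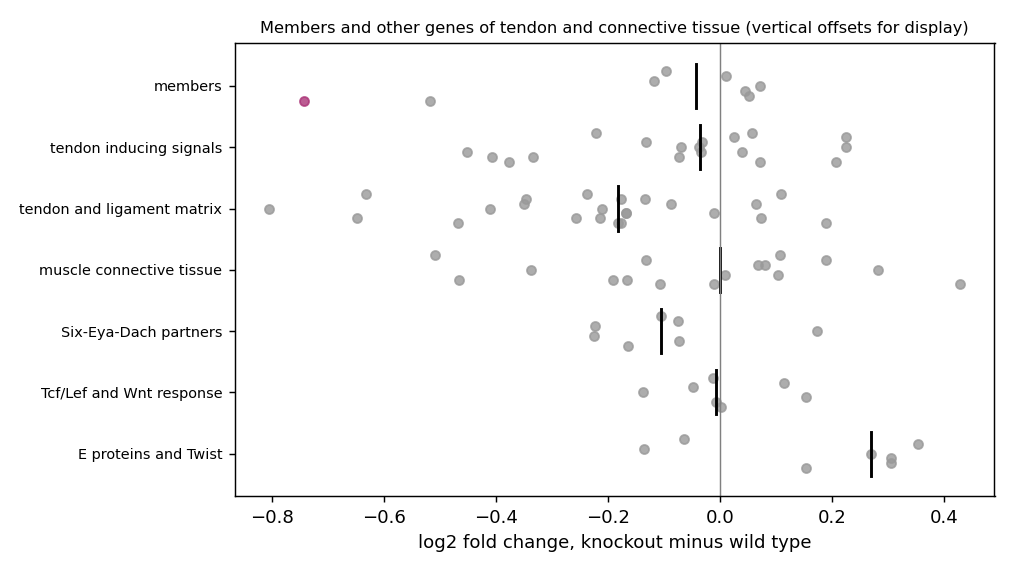
Log2 fold change (knockout minus wild type, after normexp with an offset of 50 units) of the 8 member genes tested and the 78 other genes of 6 lists, each by its brightest probe. Each point is a gene, the coloured point is the 1 gene past an adjusted p under 0.05 (Tnc), and vertical bars are medians, from -0.18 for tendon and ligament matrix to 0.27 for E proteins and Twist.

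The genes whose log2 level followed Tnc, Mkx and Scx most closely over the 6 arrays were named by Pearson correlation among 9539 genes, as a description. The arrays fall into 2 genotypes, so any gene that differs between them correlates with any other. For Tnc these were Camta2, Lypd1 and Lgi3 (r of 0.998, 0.998 and 0.997) and for Mkx they were Mrpl2, Pdlim4 and Lypd1 (each r of 0.99). Lypd1, named for both, averaged 70.0 units over wild-type arrays and 22.8 over knockout arrays, a log2 fold change of -0.60 (limma adjusted p = 0.083). For Scx they were Ccdc40, Klri1 and Rbm15 (r of 0.98, 0.98 and 0.97). With 6 arrays and 9539 candidates such values carry no weight as support.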

How the data were processed

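Total RNA of 6 hindlimb bud samples was labelled with biotin and hybridised to Illumina bead arrays, 1 per sample, per the labels' protocols. The deposited value table holds linear intensity values. Of these 27.9% lie below 0, and once sorted the 6 columns are within 1.09 units of each other, as background subtraction and quantile normalization would leave them. The software, those steps and the build are not given in the sources used here. Such scaling would hide a change in the total amount of RNA. A deposited table of non-normalized signals was not used, since its 12 value columns match no single sample's labels.

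With limma 3.58.1 in R 4.3.3, intensities were corrected by normexp with an offset of 50, and log2 was taken. The background threshold was 1.64 times the root mean square of the values below 0 (8.71 units). Genotype was the only term in lmFit and eBayes (threshold 0.05). The labels name no separate embryos or litters, so p-values measure the spread between these samples, which may be technical. The brightest tested probe stood for a gene.

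Symbols came from the platform annotation, updated by Entrez identifier (23962 of 25697 probes matched, 1719 have no symbol). The members and lists were chosen with earlier results of these data known. From each list of other genes, those called and the 3 with the smallest p are named, plus the 3 genes most correlated with Tnc, Mkx and Scx, and Pitx1 and Tbx4 as checks. In 10 simulations of knockout against wild type on 13720 probes, 66.6% of probes changed by 0.5 and 99.7% of those changed by 1 on the log2 scale were recovered. In each, 200 probes were changed, and values were normal with equal spread in both genotypes, independent between probes and without an outlying array. The arrays here are not like that, so these shares check the fit only. They do not give the share of real changes that it would find, nor show that members not called are unchanged. Alternatives covered the background step, offset, normalization, filter, replicate block, variance trend, array weights and each array left out. Figures used matplotlib 3.10.9.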

Additional observations from a re-analysis of the deposited data

How the results depend on the processing

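The signs of the folds of Tnc probes 1 and 2 and of Mkx held under all 14 alternatives run, and those of the other tested members, near 0, did not all hold. The main count of called member probes was 1. It was 0 with no background step, with an offset of 16 and with probes above background on all 6 arrays, 2 with no filter and with an intensity trend, and 3 with array weights. It ranged from 0 to 3 with 1 array left out. In every one of these fits 3 member probes had an unadjusted limma p under 0.05. Over all probes the count of 30 became 0 with no background step (951 at an unadjusted p under 0.05), 8 with an offset of 16 and 49 with an intensity trend, and ranged from 0 to 91 with 1 array left out. Fits without 1 wild-type array called 0 to 4 probes.

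Same-numbered samples deviated from their group means with correlations of 0.23, 0.17 and -0.07 for numbers 1, 2 and 3. Differently numbered samples gave -0.34 to 0.12. With so few arrays these values cannot decide whether the numbers pair the samples. The labels state no pairing, so the main fit has no block. With the replicate block 3 member probes and 84 probes in all were called, with Tnc probe 1 at an adjusted p of 0.0068, Tnc probe 2 at 0.0092 and Mkx at 0.047. Among the matrix genes 3 were called with the replicate block (Col5a1, Dcn and Lox, the last outside the naming rule), and 1 (Dcn) with an intensity trend and with array weights. Among the muscle connective tissue genes 1 (Tbx4) was called with the block. With 1 array left out the count was 0 to 1 for the inducing signals and 0 to 1 for the matrix genes.

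Signs turned for Six2 with array weights (log2 fold change 0.015). With 1 array left out the range was -0.032 to 0.15 for Scx, -0.18 to 0.21 for Osr1, -0.043 to 0.14 for Osr2, -0.029 to 0.067 for Tcf4 and -0.24 to 0.070 for Tcf7l2. The cause of these changes was not tested, except that fits with an array left out hold fewer samples. Intensities near background limit what can be said of Tnmd, Thbs4 and the dim Tnc and Tcf7l2 probes.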
